A study of Mus musculus with 2 samples.

Results

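Nanog peaks at the promoters of protein-coding genes were taken from 1 anti-Nanog ChIP-seq sample of Bruce-4 mouse embryonic stem cells (ESCs), grown in serum and LIF. A peak was a promoter peak when its middle base lay within 2.5 kb of a transcription start site (TSS), the 5' end of the annotated extent of a protein-coding gene in GENCODE vM21. The rule took 790 of the 8735 distinct peaks on chromosomes 1 to 19 and X (9.04%, exact 95% interval 8.45 to 9.67%), and left 7945 other peaks. The cells carried no treatment or genetic change in the labels, and an input sample of sonicated chromatin from the same line was the other sample of the study. The input has no peak list and its signal was not analysed here. There was 1 sample of each kind, so no value below has a replicate error and no p-value was computed. The list gives positions on mm10 without height, summit or depth, so intervals cover the counting of peaks or genes only. They treat peaks as independent. The study's methods give an approximate number of reads, but the depth behind each peak is unknown.

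Nanog is a homeodomain transcription factor that helps to keep mouse ESCs in the pluripotent state, together with Oct4 (the product of Pou5f1) and Sox2. Oct4 and Sox2 bind side by side on composite sites in which a Sox element and an octamer lie next to each other. Nanog is found at many such sites, mostly in enhancers away from promoters. Mammalian promoters differ in their CpG dinucleotides: housekeeping genes mostly start in CpG islands, where GC boxes bound by Sp and Klf factors and CCAAT boxes bound by NF-Y lie close to the TSS, whereas many tissue-specific genes start in CpG-poor sequence. The comparisons below asked where promoter peaks lie, what sequence lies under them and which genes carry them.

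The sequences under the peaks at Pou5f1 and Upp1 are shown because the study cloned enhancer fragments from both genes. Each is the central 300 bp of a peak, read from the RefSeq copy of GRCm38 (mm10) on the plus strand, the strand of both genes. Capitals mark matches to the composite, Sox, Nanog core, Oct octamer, Klf, Esrrb, GC box and CCAAT box motifs given further on.
Pou5f1 far peak (chr17:35503941-35504240, plus strand): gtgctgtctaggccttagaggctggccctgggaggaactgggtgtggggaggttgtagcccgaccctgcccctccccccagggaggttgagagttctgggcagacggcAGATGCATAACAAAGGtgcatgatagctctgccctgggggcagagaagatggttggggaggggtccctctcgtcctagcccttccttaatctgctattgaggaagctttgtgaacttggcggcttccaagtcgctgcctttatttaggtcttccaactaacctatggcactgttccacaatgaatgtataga
Pou5f1 near peak (chr17:35504845-35505144, plus strand): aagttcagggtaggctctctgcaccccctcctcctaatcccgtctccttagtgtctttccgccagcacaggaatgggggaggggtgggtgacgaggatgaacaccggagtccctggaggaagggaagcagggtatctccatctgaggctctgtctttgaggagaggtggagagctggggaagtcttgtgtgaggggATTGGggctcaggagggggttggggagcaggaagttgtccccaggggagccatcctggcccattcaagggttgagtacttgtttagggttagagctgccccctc
Upp1 peak (chr11:9116984-9117283, plus strand): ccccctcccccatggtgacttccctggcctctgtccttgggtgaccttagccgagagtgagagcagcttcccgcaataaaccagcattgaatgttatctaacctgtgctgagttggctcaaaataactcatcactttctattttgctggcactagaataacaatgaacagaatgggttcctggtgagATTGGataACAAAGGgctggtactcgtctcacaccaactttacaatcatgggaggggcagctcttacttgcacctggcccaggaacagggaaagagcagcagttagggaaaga
The cloned Pou5f1 fragment, 293 bp at chr17:35503899-35504191, lay wholly inside the far peak (chr17:35503825-35504357, 533 bp wide, centre 1927 bp upstream of the TSS). The cloned Upp1 fragment, 282 bp at chr11:9116978-9117259, lay wholly inside the Upp1 peak (chr11:9116924-9117343, 420 bp wide, centre 969 bp upstream). Pou5f1 (ENSMUSG00000024406.16, chr17:35506018-35510772) had the near peak in addition, at chr17:35504707-35505283, 577 bp wide and 1023 bp upstream. Upp1 (ENSMUSG00000020407.13, chr11:9118103-9136170) encodes uridine phosphorylase. All 3 peaks were intergenic. Each was GC-moderate and CpG-poor, with 55.3%, 59.0% and 49.3% GC and a ratio of observed to expected CpG of 0.221, 0.163 and 0.164 for the far, near and Upp1 peaks. The far peak of Pou5f1 held an Oct4-Sox2 composite with 2 mismatches, at chr17:35504049-35504063, and the Upp1 peak held a Sox element close to a CCAAT box. Only the first 399 bp of the study's Lefty1 fragment were read and placed, at chr1:180933759-180934157, and they overlapped no peak in the list. The study describes all 3 cloned elements, that of Lefty1 included, as bound by Nanog in ESCs. It refers there to browser tracks of input-subtracted signal, a different measure from overlap with the list. Lefty1, a Nodal antagonist, had no promoter peak, and the centre nearest to its TSS lay 10.161 kb away.

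The sequences around some composites in promoter peaks are shown because they are the Oct4-Sox2 elements described above. Of 32 promoter peaks with a composite, 5 had 1 mismatch and 27 had 2. From the 27 with 2 mismatches, those nearest to a TSS were chosen for printing. The motif was written as CATTGT or CTTTGT, 1 base, then ATGCAAAT, and up to 2 mismatches over 14 letters were allowed on either strand. Each line gives 45 bp on either side of the composite, which is in capitals, on the strand of the gene.
Rpe (chr1:66700018-66700122, plus strand): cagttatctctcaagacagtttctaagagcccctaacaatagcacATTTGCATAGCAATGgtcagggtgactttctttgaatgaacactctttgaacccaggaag
Dppa3 (chr6:122624636-122624740, plus strand): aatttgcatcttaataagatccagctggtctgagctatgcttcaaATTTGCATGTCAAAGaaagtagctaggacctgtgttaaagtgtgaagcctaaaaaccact
Mak16 (chr8:31170839-31170943, minus strand): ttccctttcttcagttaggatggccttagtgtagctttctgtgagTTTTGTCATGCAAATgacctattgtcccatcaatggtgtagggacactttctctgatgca
Dkk3 (chr7:112158835-112158939, minus strand): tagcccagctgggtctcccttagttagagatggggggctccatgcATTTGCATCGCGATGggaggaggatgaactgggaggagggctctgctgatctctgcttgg
Arhgap28 (chr17:68004173-68004277, minus strand): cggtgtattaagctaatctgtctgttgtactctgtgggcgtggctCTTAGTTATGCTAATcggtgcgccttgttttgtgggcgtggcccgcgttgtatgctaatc
Acot9 (chrX:155262225-155262329, plus strand): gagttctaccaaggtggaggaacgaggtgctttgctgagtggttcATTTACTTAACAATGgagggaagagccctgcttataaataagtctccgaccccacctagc
Zfp42 (chr8:43307136-43307240, minus strand): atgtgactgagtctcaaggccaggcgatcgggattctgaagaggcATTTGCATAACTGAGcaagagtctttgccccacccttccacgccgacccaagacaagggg
Aanat (chr11:116586486-116586590, plus strand): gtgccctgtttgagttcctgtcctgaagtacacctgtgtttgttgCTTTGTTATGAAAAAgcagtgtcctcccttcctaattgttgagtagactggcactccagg
Rpe, Dppa3 and Mak16 had 1 mismatch and the other 5 had 2. Pipox and Sapcd1 also had a composite with 1 mismatch, in windows that touched an exon and are not printed. Dppa3, a maternal-effect and ESC gene also known as Stella, had the composite in a peak 1751 bp upstream of its TSS. Zfp42 (Rex1), a marker of naive ESCs, had it in a peak 172 bp upstream. Rpe, which encodes an enzyme of the pentose phosphate pathway, had it 635 bp upstream, and Mak16, a ribosome biogenesis gene, 2115 bp upstream.

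A pair of 150-bp sequences shows the range of CpG content, with matches to the same motifs as in the first set in capitals.
Rbbp4 (chr4:129335375-129335524, minus strand): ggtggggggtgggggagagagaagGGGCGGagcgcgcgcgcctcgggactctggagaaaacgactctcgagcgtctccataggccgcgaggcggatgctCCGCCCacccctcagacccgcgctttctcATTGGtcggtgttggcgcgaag
4933406M09Rik (chr1:134385786-134385935, plus strand): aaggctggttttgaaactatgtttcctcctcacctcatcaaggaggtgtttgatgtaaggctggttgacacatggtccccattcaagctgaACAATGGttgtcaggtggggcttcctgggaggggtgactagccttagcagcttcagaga
The Rbbp4 peak (chr4:129335311-129335589), 80 bp upstream of the TSS of this chromatin-assembly and Polycomb gene, had a ratio of observed to expected CpG of 1.15 over 300 bp, and its printed centre held 2 GC boxes and a CCAAT box. The 4933406M09Rik peak (chr1:134385744-134385978), 79 bp upstream of its TSS, held no CpG and had a Sox element. Promoter peaks at nearly the same distance from a TSS thus ranged from island sequence to sequence without CpG, and 24 of the 790 windows of 300 bp held no CpG.

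Promoter peaks crowded at the TSS itself. The density of peak centres was 34.5 peaks per Mb in the 250 bp upstream of TSSs and 19.6 in the 250 bp downstream, against 3.32 over the genome. From 500 bp to 2.5 kb it was 5.85 upstream and 4.84 downstream. From 5 to 10 kb, outside the promoter rule, it was 5.35 upstream. The outer promoter peaks were therefore about as dense as peaks farther from genes, and the excess over the flank lay within 500 bp. No input signal at these positions was analysed here. Of the 790 promoter peaks, 364 (46.1%, 42.6 to 49.6%) had their centre within 500 bp of the TSS, called proximal here, and 426 lay farther out, called outer. Within 100 bp lay 164 (20.8%), and 223 intervals (28.2%) held a TSS.

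**Figure D1:**
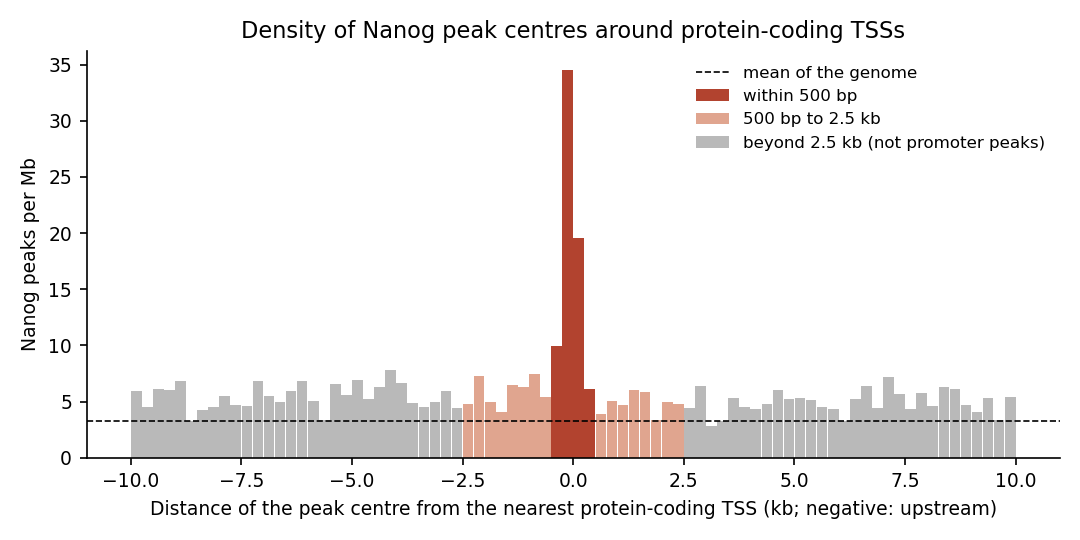
Nanog peak centres per Mb (y axis) in 250-bp bins of signed distance from the nearest protein-coding TSS in kb (x axis, negative is upstream). Dark bars are proximal, light bars outer promoter peaks and grey bars other peaks, with the genome mean dashed. The bin just upstream of the TSS reached 34.5 and the one just downstream 19.6, whereas the bins of outer promoter peaks stayed between 3.36 and 7.44.

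More promoter peaks lay upstream than downstream. The counts were 457 and 333, an upstream share of 57.8% (54.3 to 61.3%), with no centre on the TSS base. The share was 62.6% (57.4 to 67.6%) among proximal peaks, with 228 upstream and 136 downstream. In the ring from 1000 to 1500 bp the counts were 63 and 55, from 1500 to 2000 bp 44 and 47, and from 2000 to 2500 bp 58 and 49. The intervals of these 3 shares held 50% (44.0 to 62.6%, 37.7 to 59.1% and 44.3 to 63.9%). Upstream peaks were mostly intergenic (85.3%), whereas 55.6% of downstream peaks were intronic, 30.9% lay in a UTR and 7.51% in a coding exon.

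The peaks centred nearest to a TSS were those of Dnajb5 (1 bp upstream), Rprd2 (2 bp upstream), Rgcc (3 bp downstream), Tent2 (5 bp upstream) and Zfp719 (5 bp downstream). Rprd2 binds RNA polymerase II, and Tent2 is a cytoplasmic poly(A) polymerase. The widest promoter peaks were those of Cidea (718 bp), Shf (701 bp), Vamp9 (691 bp), Olfr1044 (683 bp) and Cd55 (654 bp). The median width of promoter peaks was 309 bp against 321 bp in other peaks, with 295.5 bp among proximal and 322 bp among outer peaks. At the limit of the rule, the peaks of Smndc1, Ldlrad3 and Serp2 lay just inside, 2471, 2474 and 2477 bp from the TSS, and those of Parp1, Tfe3 and Msln just outside, at 2512, 2514 and 2515 bp.

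Proximal and outer peaks differed in base composition. Windows of 300 bp on proximal peaks had a median GC content of 62.7% (quartiles 56.3 and 67.3%), and windows on outer peaks 49.0% (45.3 and 53.3%). The median ratio of observed to expected CpG was 0.759 (0.549 and 0.894) in proximal and 0.218 (0.130 and 0.397) in outer peaks. The other peaks of the list had medians of 47.3% GC and 0.166. Proximal TSS sequence is CpG-rich in general, so windows at the same distances from all 21755 protein-coding TSSs served as background. Their medians were 54.7% GC and 0.493 for the proximal distances and 44.7% GC and 0.196 for the outer ones. Nanog peaks near TSSs thus lay in more GC-rich sequence than promoters at large.

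CpG-island sequence, defined as GC over 50% with a ratio over 0.6, made up 69.0% of proximal peaks (63.9 to 73.7%) against 39.2% of windows at the same distances. Among outer peaks it made up 8.69% (6.19 to 11.8%) against 4.28%, and among other peaks of the list 1.52%. In the 500 bp downstream of TSSs 75.0% of the peaks were in such sequence, in the 500 bp upstream 65.4%, and between 1500 and 2000 bp upstream none of 44 was. Peak centres fell less often in soft-masked repeats than background positions did: 5.49% of proximal centres were masked (3.39 to 8.36%) against 11.5%, and 17.6% of outer centres (14.1 to 21.6%) against 25.4%.

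**Figure D2:**
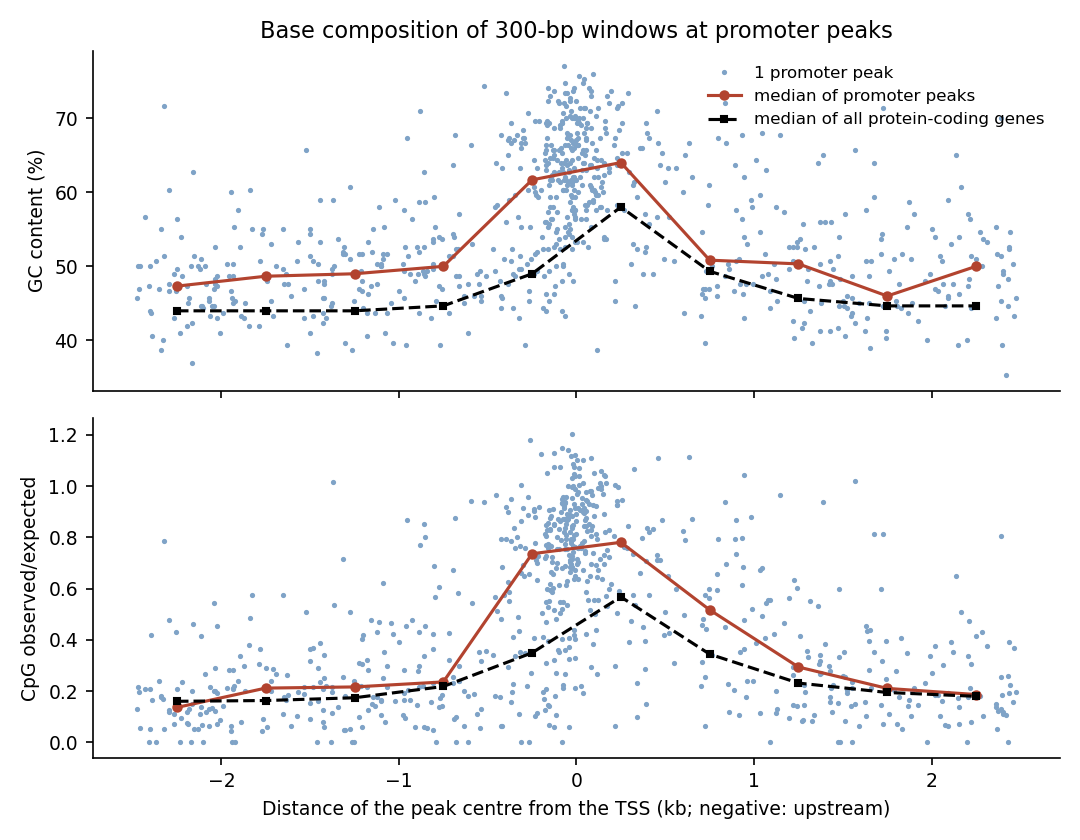
GC content in percent (top) and the ratio of observed to expected CpG (bottom) of the 300-bp window on each of the 790 promoter peaks, against signed distance from the TSS in kb. Lines join medians in 500-bp bins for promoter peaks (circles) and for windows at all protein-coding genes (squares, dashed). In the bins next to the TSS the peaks' CpG medians were 0.736 and 0.781 against 0.350 and 0.568 for all genes, and beyond 1500 bp both lines lay between 0.136 and 0.212.

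The proximal peaks carried the elements of ordinary promoters. The GC box GGGCGG was present in 65.7% of them (60.5 to 70.5%), and the CCAAT box, searched as CCAAT on both strands like every motif, in 50.3% (45 to 55.5%). The Klf motif (GCCACACCC, GCCACGCCC, GCCCCACCC or GCCCCGCCC, the last 2 of which can overlap a GC box) was present in 32.4% (27.6 to 37.5%). The background was windows at all protein-coding TSSs, at the same distance and of the same GC content in bins of 5 percentage points. These windows held the GC box, CCAAT box and Klf motif in 54.7%, 31.7% and 21.0%. The peaks exceeded them 1.20-fold, 1.59-fold and 1.55-fold. Intervals of these ratios count the peaks only and were 1.11 to 1.29, 1.42 to 1.75 and 1.32 to 1.79. The CREB motif TGACGTCA was present in 4.67% of proximal peaks and 2.10% of that background, 2.22-fold (1.30 to 3.50). The Myc E-box CACGTG was present in 11.5% against 8.36%, 1.38-fold (1.01 to 1.83). NRF1 (GCGCATGCG), ETS (CCGGAAGT) and YY1 (AAGATGGCG) were present in 3.02%, 4.12% and 3.30% of proximal peaks, and the intervals of their ratios to that background held 1. The background was not matched on CpG, which the GC box, the CREB motif, the Myc E-box and some Klf words contain. The median ratio of observed to expected CpG was 0.759 in proximal peaks and 0.493 in all windows at the same distances. Whether the excess of these motifs goes with CpG content was not tested.

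CCAAT boxes also lay near the centres of proximal peaks. There were 159 copies within 50 bp of the centres of the 364 peaks and 89 copies at 100 to 150 bp, or 4.37 and 2.45 copies per kb. In other peaks the densities were 1.48 and 1.45 per kb. GC boxes fell from 5.91 to 3.82 per kb and Klf motifs from 2.14 to 1.26 over the same steps in proximal peaks. Among outer peaks GC boxes had 0.916 and 0.986 copies per kb. These densities were not set against the profile of the same boxes at promoters without a peak, where they also gather near the TSS.

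As shares of windows, without regard to GC content, pluripotency motifs were scarcer in proximal than in outer peaks. The Nanog core CCATTA was present in 5.49% of proximal peaks (3.39 to 8.36%), 19.5% of outer peaks (15.8 to 23.6%) and 16.2% of other peaks. The Oct octamer ATGCAAAT was present in 1.65%, 7.04% and 5.45%, with proximal and outer intervals that did not overlap (0.607 to 3.55% and 4.80 to 9.90%). The Esrrb motif TCAAGGTCA was present in 0.824% and 4.69%, again without overlap (0.170 to 2.39% and 2.89 to 7.16%). Sox elements (CCATTGT or CCTTTGT) were present in 11.5% and 18.5%, with intervals that overlapped slightly (8.44 to 15.3% and 15.0 to 22.6%), and in 27.8% of other peaks. Outer peaks had the octamer 1.29 times as often as other peaks (0.904 to 1.85) and the composite 0.814 times (0.537 to 1.23), intervals that hold 1, but Sox elements 0.666 times as often (0.544 to 0.815). Against windows of the same distance and GC content, Sox elements were in like excess in both zones. The ratios were 1.94 in proximal (1.42 to 2.57) and 2.00 in outer peaks (1.61 to 2.43). For the octamer they were 2.04 (0.752 to 4.40) and 6.14 (4.19 to 8.63), and for Esrrb 2.17 (0.448 to 6.29) and 5.19 (3.20 to 7.92).

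The composite was the motif with the largest excess over sequence background among those searched, in both zones. It was present in 10 proximal peaks (2.75%) and 22 outer peaks (5.16%), with overlapping intervals. Windows of the same distance and GC content held it in 0.222% and 0.430%, so that peaks exceeded them 12.4-fold (5.98 to 22.5) and 12.0-fold (7.59 to 17.9). Copies lay at the peak centres: 7 of the proximal copies were within 50 bp of the centre and 1 at 100 to 150 bp, and 16 and 2 of the outer copies. The Nanog core, in contrast, exceeded the same background 2.14-fold in outer peaks (1.74 to 2.59) and 1.26-fold in proximal peaks (0.775 to 1.91), an interval that holds 1. Tead (GGAATG) and AP-1 (TGACTCA or TGAGTCA) motifs were present in 14% and 3.02% of proximal peaks and exceeded the background 1.19-fold and 0.961-fold, with intervals that held 1. The extended Nanog motif GCCATTAA was found in 5 of the 790 peaks. Over the 300-bp window centred 100 bp upstream of every protein-coding TSS, GC boxes were present in 43.4%, CCAAT boxes in 38.9%, the Nanog core in 6.67% and the composite in 0.639%.

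**Figure D3:**
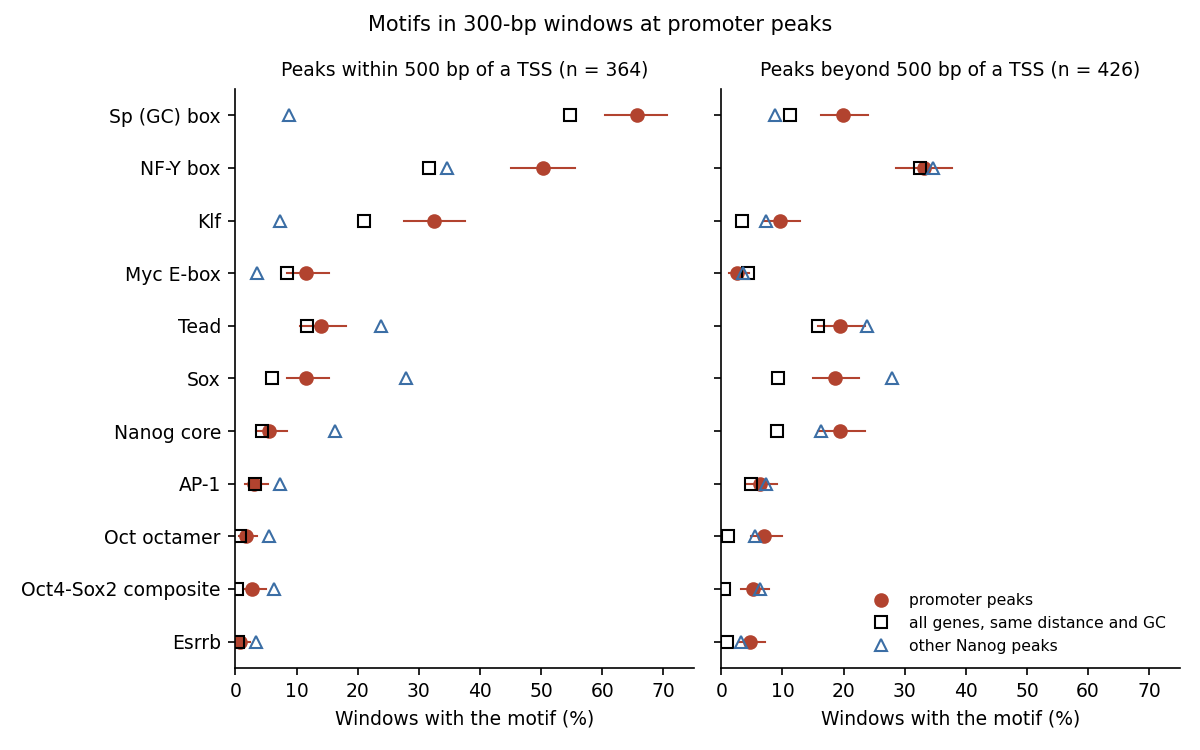
Percent of 300-bp windows with each motif (x axis) in proximal (left, n = 364) and outer (right, n = 426) promoter peaks, as circles with exact 95% intervals. Squares are windows at all protein-coding TSSs of the same distance and GC content and triangles are other Nanog peaks. Proximal peaks sat above the squares for Sp (GC) boxes (65.7 and 54.7%), NF-Y (CCAAT) boxes (50.3 and 31.7%) and Klf, and far below the triangles for Sox (11.5 and 27.8%), whereas outer peaks sat near the triangles for the octamer and the composite and below the triangle for Sox (18.5 and 27.8%).

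Counted by gene, 829 of 21755 protein-coding genes had a promoter peak, a background of 3.81% (3.56 to 4.07%) for the lists that follow. Of these, 791 had 1 peak, 35 had 2 and 3 had 3. A peak within 500 bp was found at 400 genes (1.84%). The 3 genes with 3 peaks were Rhpn2, with centres 2264 and 345 bp upstream and 1080 bp downstream, Agtrap, 1304 bp upstream and 856 and 2275 bp downstream, and Mtmr12, 2296, 1203 and 74 bp upstream. Agtrap encodes a protein bound to the angiotensin receptor and Mtmr12 a myotubularin-related protein. Pou5f1 and Mobp followed by summed width. Among the 38 genes with several peaks, 20 had them upstream, 7 downstream and 11 on both sides, and the median spacing of the leftmost 2 centres was 1078.5 bp.

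Genes of the pluripotent state carried promoter peaks far more often than genes at large. Of 38 ESC-enriched genes 14 were bound (36.8%, 21.8 to 54.0%), and of 18 naive pluripotency factors 5 (27.8%, 9.69 to 53.5%). Neither interval held 3.81%. All gene lists here were chosen with earlier results of these data known, so their counts are not independent of the data. The bound naive factors were Pou5f1, Tfcp2l1, a transcription factor downstream of LIF, Prdm14, a regulator of naive and germ cell states, Mycn, a Myc family gene, and Zfp42. Together the lists had 56 genes and 19 bound ones. Their peaks did not follow the common layout: 4 of the 19 (21.1%, 6.05 to 45.6%) had a peak within 500 bp, against 400 of all 829 bound genes (48.3%, 44.8 to 51.7%), and 16 of the 19 had upstream peaks alone (84.2%, 60.4 to 96.6%), against 478 of 829 (57.7%, 54.2 to 61.1%). The 19 genes are part of the 829, and both pairs of intervals overlapped narrowly. Of the 24 peaks at these genes 1, that of Prdm14, was in CpG-island sequence (4.17%, 0.105 to 21.1%), against 36.5% of all promoter peaks (33.1 to 39.9%). The composite was in 4 of the 24 (Pou5f1, Dppa3, Zfp42 and Fbxo15), a Sox element in 8, a GC box in 2 and a CCAAT box in 13. As shares these were 16.7%, 33.3%, 8.33% and 54.2%, beside 4.05%, 15.3%, 41.0% and 41.0% of all promoter peaks. The interval over the 24 peaks held the share of all promoter peaks for the CCAAT box (32.8 to 74.4%), and did not for the GC box (1.03 to 27.0%), the Sox element (15.6 to 55.3%) or the composite (4.74 to 37.4%).

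The 4 genes with a proximal peak were Phc1, a subunit of Polycomb repressive complex 1, with a centre 18 bp upstream, Fbxo15, an F-box gene used as an ESC reporter, at 156 bp upstream, Tdh, the threonine dehydrogenase of mouse ESCs, at 170 bp downstream, and Zfp42. Phc1 and Fbxo15 each had another peak, 662 and 886 bp upstream. Tfcp2l1 had peaks 1308 and 2393 bp upstream, and Tdgf1, the Nodal co-receptor Cripto, 1344 and 2038 bp upstream. Jarid2, a cofactor of Polycomb repressive complex 2, had a peak of 513 bp centred 793 bp upstream that held 2 Sox elements and no CpG. Spp1 (osteopontin), Dppa2, Jam2, Mycn, Mybl2 and Cobl had a peak each, between 911 and 2407 bp upstream, and Prdm14 had its peak 1091 bp upstream. Eras, an ESC-expressed Ras gene, and Gdf3, a TGF-beta family ligand, had intronic peaks 1363 and 1503 bp downstream.

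**Figure D4:**
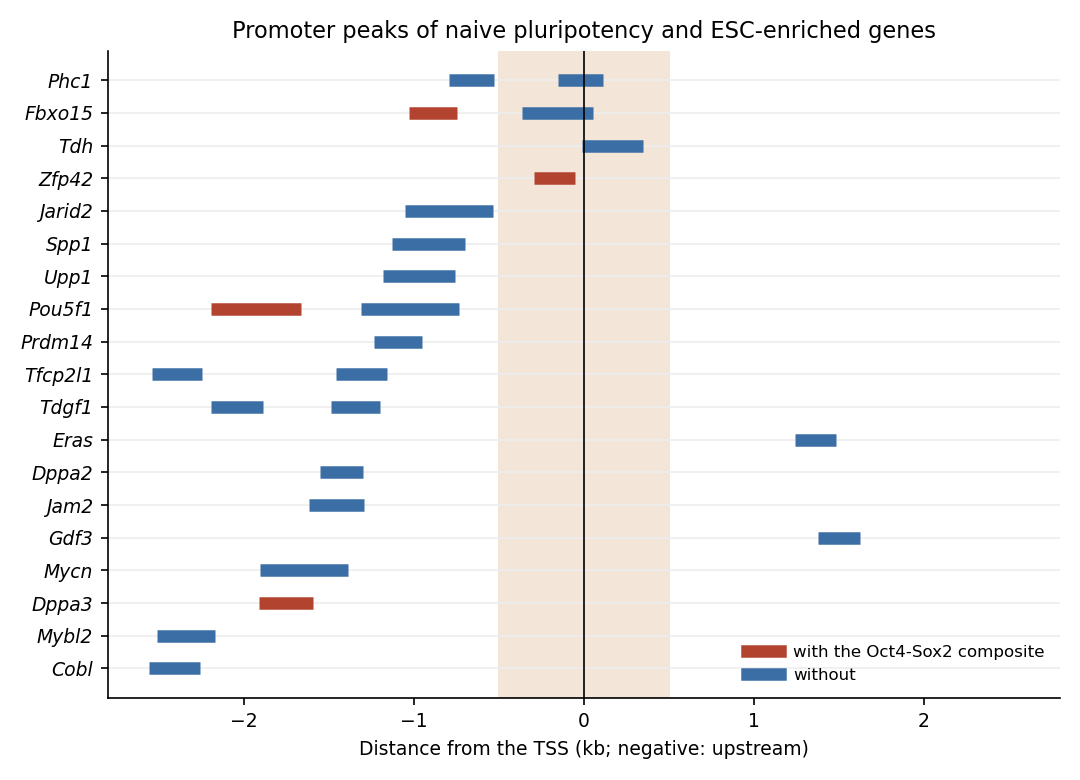
Promoter peaks of the 19 bound genes of the naive pluripotency and ESC-enriched lists, each drawn at its width along signed distance from the TSS in kb, with genes ordered by their nearest centre and the 500 bp on either side of the TSS shaded. Red intervals hold an Oct4-Sox2 composite and blue ones do not. Phc1, Fbxo15, Tdh and Zfp42 have a centre in the shaded band, and Eras, Gdf3 and Tdh are the genes with a downstream centre.

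Many pluripotency genes without a promoter peak had one farther away. Sox2 had its nearest centre 3.681 kb from the TSS and Nanog itself 4.868 kb. Among the 37 unbound genes of the 2 lists, 23 (62.2%, 44.8 to 77.5%) had a peak centre within 20 kb of the TSS, against 14.7% of all unbound protein-coding genes (14.3 to 15.2%). Esrrb, an orphan nuclear receptor of naive ESCs, had none nearer to its TSS than 109.983 kb, and Klf4 had one at 16.344 kb. These distances run from the 5' end of the annotated gene, and distances to its other transcript starts are not given here. None of the 17 Klf genes had a promoter peak (upper limit 19.5%), and the nearest centre at Klf2 lay 2.731 kb from its TSS. Of the study's 17 pluripotency examples 3 were bound (17.6%, 3.80 to 43.4%), Pou5f1 and Tfcp2l1 among them. Of the 65 genes at the study's putative inducible enhancers 17 were bound (26.2%, 16.0 to 38.5%). The study chose those genes with ESC binding data in view, so the count is not independent of it. None of the 9 genes of its reprogramming network had a promoter peak (upper limit 33.6%). Among them Tead4, Gli2 and Nanog had a centre within 5 kb of the TSS. The limits for this network and for the Klf genes lie above 3.81%, so these counts of 0 do not tell them from other genes.

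Signalling genes were bound in small numbers, and the intervals of the LIF and Wnt lists lay above the background of 3.81% while those of the Nodal, FGF and BMP lists held it. In the Nodal and Activin pathway 3 of 20 were bound (15.0%, 3.21 to 37.9%), namely the ligands Nodal, 1934 bp upstream, and Gdf3, and the co-receptor Tdgf1. In the LIF and STAT3 pathway 3 of 15 were bound (20.0%, 4.33 to 48.1%): Il6st, which encodes the receptor subunit gp130, with a peak 1413 bp upstream that held an octamer and 2 Sox elements, the kinase gene Tyk2, 29 bp upstream, and the kinase gene Pim1, 455 bp upstream. The Il6st peak was CpG-poor (0.219), and those of Tyk2 and Pim1 were in CpG-island sequence (0.794 and 0.965). In the Wnt pathway 5 of 30 were bound (16.7%, 5.64 to 34.7%): the receptor Fzd8, the kinase Gsk3a, the Wnt acyltransferase Porcn, the Wnt carrier Wls and Tcf7l1, a repressor of pluripotency genes, which had an intronic peak 1713 bp downstream. None of the 19 Wnt ligand genes was bound. The FGF and ERK pathway had 2 of 34 and the BMP pathway 1 of 16, near the background, and formative and primed factors 3 of 13 (23.1%, 5.04 to 53.8%), Fgf5 and Grhl2 among them.

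Lists for other lineages were short and held few bound genes, and those with any bound gene had percents above the background. None of 15 endoderm factors, 39 Hox, 44 Fox or 13 Tbx genes was bound, with upper limits of 21.8%, 9.03%, 8.04% and 24.7%. The Fox and Hox limits lie above the background of 3.81%, so these counts of 0 do not tell the families from other genes. Primitive streak and mesoderm factors had 1 of 18 (5.56%, Evx1), trophectoderm factors 1 of 14 (7.14%, Id2) and neuroectoderm factors 3 of 21 (14.3%). The neuroectoderm genes were the proneural genes Neurog1 and Neurog2, both with proximal peaks in CpG-island sequence, and Lhx2. Mesenchymal genes had 1 of 20, Snai1, a repressor of E-cadherin, with an intronic peak 2091 bp downstream. Epithelial genes had 4 of 26 (15.4%, 4.36 to 34.9%), among them Cldn4, with 2 peaks, Prss8 and Grhl2. The intervals of the epithelial and lysine demethylase lists lay above 3.81%, and those of the other lineage and chromatin lists held it. Polycomb components had 4 of 33 (12.1%, 3.40 to 28.2%), namely Phc1, Jarid2, Kdm2b and Rbbp4, and lysine demethylases 4 of 17 (23.5%, 6.81 to 49.9%), namely Kdm1b, Kdm2b, Kdm3b and Kdm4b. DNA methylation genes had none of 18, cell cycle genes 3 of 25 and Hippo and Tead genes 1 of 19 (Amotl2).

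Large families gave tighter values. Olfactory receptors were bound at 5 of 1135 (0.441%, 0.143 to 1.03%) and vomeronasal receptors at 3 of 331 (0.906%, 0.187 to 2.63%), both under the background. Zinc finger genes with Zfp, Zscan or Zkscan names had 17 of 424 (4.01%, 2.35 to 6.34%) and solute carriers 17 of 371 (4.58%, 2.69 to 7.24%), near the background. Cytosolic ribosomal protein genes had 2 of 86, Rplp0 and Rps21, with proximal peaks 68 and 19 bp upstream that each held a GC box and a CCAAT box. Mitochondrial ribosomal protein genes had 3 of 78, proteasome subunits none of 40, replication-dependent histones 3 of 67, keratins 3 of 53, protocadherins 1 of 69 and genes whose symbol is Rab and a number, which include some Rab-interacting proteins, 2 of 69 (Rab33b and Rab3ip). The counts were 1 of 19 for Sox genes (Sox12), 2 of 33 for claudins, 3 of 39 for kinesins and 4 of 68 for TRIM genes, whose intervals all held the background.

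**Figure D5:**
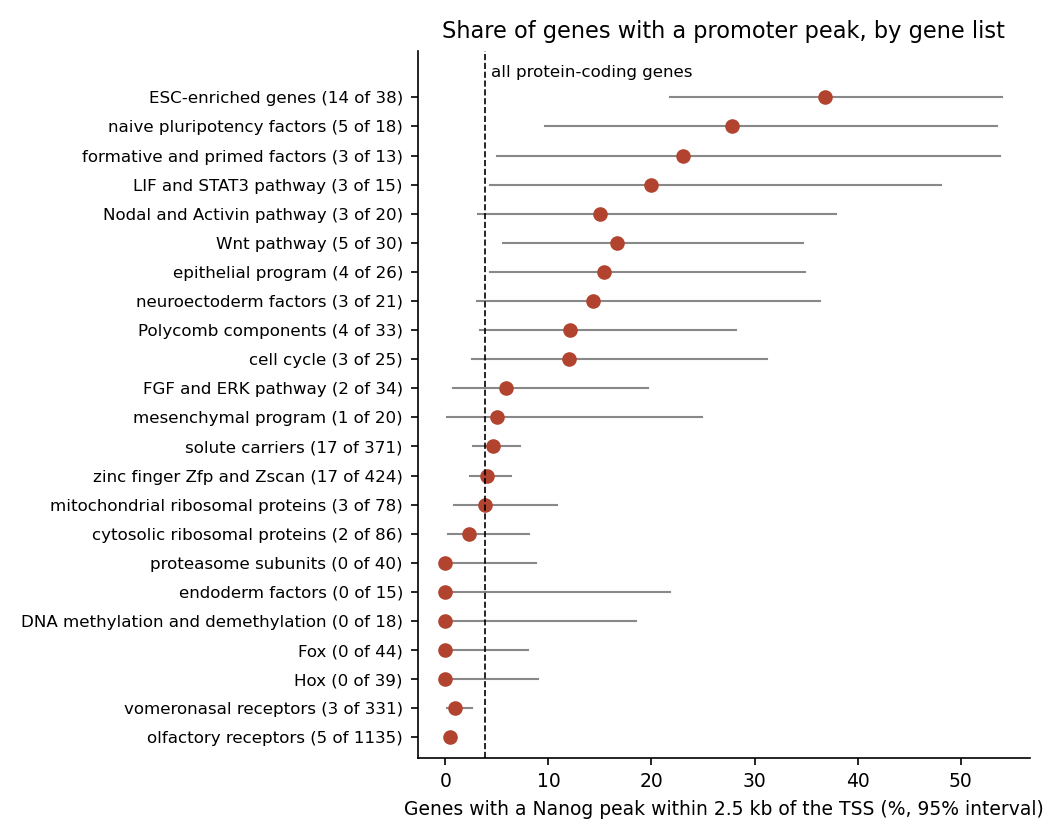
Percent of the genes of each list with a Nanog peak within 2.5 kb of the TSS (x axis), with exact 95% intervals and the counts beside the names. The dashed line is the 3.81% of all protein-coding genes. The intervals of ESC-enriched genes (36.8%) and naive factors (27.8%) lie to the right of the line, as do those of several short lists such as the Wnt pathway (16.7%), most other lists span it, and olfactory (0.441%) and vomeronasal receptors (0.906%) lie to its left.

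The CpG content of the promoter itself went with binding. Promoters were classed by the windows of 500 bp from 700 bp upstream to 200 bp downstream, as high (some window over 0.75 with GC over 55%), low (no window over 0.48) or intermediate. Genes with high-CpG promoters were bound at 391 of 7338 (5.33%, 4.83 to 5.87%), intermediate ones at 245 of 5472 (4.48%, 3.94 to 5.06%) and low ones at 193 of 8945 (2.16%, 1.87 to 2.48%). The low class lay apart from both others, whose intervals overlapped. The difference was steeper next to the TSS, where 2.97% of high-CpG genes (2.59 to 3.39%) and 0.693% of low-CpG genes (0.532 to 0.888%) had a peak within 500 bp, than for genes with outer peaks alone (2.36 and 1.46%). Of the members at high-CpG genes 53.0% were proximal, against 31.3% at low-CpG genes, and the median distances were 398 and 966.5 bp. On the X chromosome 16 of 948 genes were bound (1.69%, 0.968 to 2.73%), against 3.91% of autosomal genes (3.65 to 4.18%), and the 2 intervals did not overlap. The X held 140 of the 8735 peaks in all, and the share of them at promoters was 10.7% (6.12 to 17.1%) against 9.02% on autosomes (8.42 to 9.64%).

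Divergent gene pairs, with TSSs on opposite strands pointing away from each other and at most 1 kb apart, are commonly served by a shared CpG-rich promoter. The annotation held 755 such pairs with 1489 protein-coding genes. Of these genes 93 were bound (6.25%, 5.07 to 7.60%), against 3.63% of genes outside such pairs (3.38 to 3.90%). Most divergent genes had high-CpG promoters (76.8% against 30.6%), and among high-CpG genes the shares were 5.59% in divergent pairs (4.33 to 7.09%) and 5.28% outside them (4.74 to 5.87%). Among intermediate-CpG genes they were 9.96% (6.72 to 14.1%) and 4.18% (3.65 to 4.76%). Since most peaks near one TSS of a pair are within 2.5 kb of the other, each such peak counts for both genes: of 48 pairs with a peak, 47 had both genes bound.

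By peak, 47 promoter peaks (5.95%, 4.40 to 7.83%) had a gene of a divergent pair as their nearest gene. The share was 8.79% of proximal peaks (6.09 to 12.2%) and 3.52% of outer peaks (1.98 to 5.74%). Such genes made up 6.84% of the genes, but the genes of a pair share most of their promoter region. That percent is therefore not the share of peaks to be expected at pairs. By pair, 48 of 755 (6.36%, 4.72 to 8.34%) had a promoter peak. The centre lay between the 2 TSSs in 17 peaks. Among the widest of these were those at Hspa14 and Cdnf (391 bp), Hscb and Chek2 (355 bp), 2810408A11Rik (340 bp) and Ska2 (334 bp). Hspa14 and Hscb encode chaperones and Ska2 a kinetochore protein. Divergent peaks had a median GC content of 57.7% and a CpG ratio of 0.735. Beyond divergent pairs, 77 promoter peaks in all (9.75%) had several protein-coding TSSs within 2.5 kb, 46 of them at a divergent pair. For 43 (5.44%) the nearest TSS of all was that of a noncoding gene.

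Few outer peaks lay near another annotated start. Of the 426 outer peaks 38 (8.92%, 6.39 to 12.0%) lay within 500 bp of the start of some annotated transcript of a protein-coding gene, and 8.73% of positions at the same distances from all TSSs did.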

How the data were processed

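Chromatin from Bruce-4 mouse ESCs was immunoprecipitated with an anti-Nanog antibody in 1 sample, and 1 input sample was sequenced beside it. According to the study's methods, the authors aligned reads to mm10 with Bowtie2 after FastQC, removed low-quality, duplicate, blacklisted and mitochondrial reads with BEDtools and SAMtools, and called peaks with MACS2. The threshold, the control used and the versions of the aligner and the peak caller are not given in the sources used here. The deposited values are interval positions with no count, signal or score, so the depth behind each peak is unknown. Repeated lines were reduced to distinct intervals. The 300-bp windows were read from GRCm38.p6, and genes were taken from GENCODE vM21. Soft-masked bases were read as repeats. Python 3.11.15, NumPy 2.4.6, SciPy 1.17.1, pysam 0.24.0 and matplotlib 3.10.9 were used, and counting steps were tested on simulated data. Shares have exact 95% Clopper-Pearson intervals, ratios between peak sets have intervals on the log scale, and no test over samples was possible. Background windows were taken in steps of 100 bp of distance at every protein-coding gene. The split at 500 bp and the windows matched on GC were chosen after the list had been seen, and the members and gene lists were chosen with earlier results of these data known. The genes named were the cloned elements, the bound members of the lists, and the 3 or 5 highest or lowest by number of peaks, distance, width and CpG and 10 composites, fewest mismatches first and then nearest to a TSS, with neighbours of a divergent pair and other list genes named where a count turned on them. Some genes that this rule names are not reported here. Alternatives covered the distance limit, the TSS definition, the window, the motif mismatches and the CpG limits.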

Additional observations from a re-analysis of the deposited data

How the results depend on the processing

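With 1 sample and no replicates, no value had a spread between samples to set it against, and the depth behind a peak is unknown. Of 58 alternative values for 26 results, 44 stayed inside the 95% interval of the reported value and 14 moved outside it. The count of reversed values was 0, but only the upstream share and the motif ratios have a value at which their direction changes. The other results could not reverse, so the count says nothing about them. The Esrrb ratio of promoter to other peaks passed 1, from 0.886 to 1.02 in windows of 200 bp. It was counted as inside the reported interval (0.582 to 1.35), which held 1. The split at 500 bp, the ratios to windows matched on GC, the motif densities around peak centres and the gene-list percents were not varied. No paired analysis was possible because no result comes from a test between groups. The promoter share of peaks was 5.43% with a limit of 1 kb, 14.7% with 5 kb and 15.6% with the TSS of every transcript, in place of 9.04%. The percent of genes bound was 2.39%, 6.25% and 6.04% under the same changes and 3.46% when each peak was given to its nearest TSS, in place of 3.81%. The upstream share was 61.6% within 1 kb, in place of 57.8%. The divergent share of peaks was 10.5% with partner genes of any type, in place of 5.95%. The share in CpG-island sequence was 32.2% with limits of 0.65 and 55% GC, in place of 36.5%. Of the motif ratios between promoter and other peaks, the Myc E-box had 2.60 in windows of 200 bp, in place of 1.94, the GC box 5.27 in 200 bp and 4.11 in the deposited intervals, in place of 4.66, and the CCAAT box 1.36 in 200 bp, in place of 1.19.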
